A study of Mus musculus with 17 samples.

Results

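The cells described here are macrophages of mouse pancreatic tumours that carried messenger RNA of Marco, Lyve1 or Fcna, genes known from macrophages that reside in healthy tissues. They were chosen by their UMI counts (unique molecular identifiers, each standing for 1 captured transcript). A cell had to hold at least 500 detected genes and at most 10% mitochondrial UMIs, at least 1 UMI of Csf1r, at least 20 UMIs of C1qa, C1qb and C1qc together, 0 UMIs of the Cd3 genes and of Cd79a, and at least 4 UMIs of Marco, Lyve1 and Fcna together. This selected 371 members among 18546 cells, or among the 3517 C1q macrophages that met every clause but the last. The remaining 3146 C1q macrophages, with at most 3 UMIs of the 3 genes, served for comparison and are called the other C1q macrophages.

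Macrophages settle in tissues before birth or arise later from blood monocytes, and those that stay for long share programmes for scavenging. Marco is a class A scavenger receptor for bacteria and particles, Lyve1 binds hyaluronan, and Fcna encodes ficolin A, a secreted lectin that starts the lectin pathway of complement. Folr2 (folate receptor beta), Vsig4 (a receptor for complement C3 fragments) and Timd4 (a receptor for phosphatidylserine on dying cells) are commonly found beside them, and in the pancreas Lyve1 and Folr2 mark resident macrophages of the stroma.

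The promoters of Fcna, Marco and Folr2 are shown because the members of the 5 libraries had Fcna and Folr2 in common and differed in Marco, as described below. Each sequence is the RefSeq strand of the gene from 250 bases before to 50 bases after a start site on GRCm38.p6, where all lie on the minus strand. Capitals mark AGGAAG, a core bound by ETS factors such as PU.1, and TGCTGA, a half-site of MAF factors, found on either strand.
Fcna, chr2:25627925-25628224: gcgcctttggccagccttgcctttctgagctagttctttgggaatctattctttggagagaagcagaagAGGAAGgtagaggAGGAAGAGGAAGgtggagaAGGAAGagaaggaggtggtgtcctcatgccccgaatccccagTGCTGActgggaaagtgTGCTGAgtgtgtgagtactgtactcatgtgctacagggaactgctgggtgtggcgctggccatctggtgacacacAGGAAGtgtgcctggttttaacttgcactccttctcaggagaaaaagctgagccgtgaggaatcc
Marco, chr1:120504975-120505274: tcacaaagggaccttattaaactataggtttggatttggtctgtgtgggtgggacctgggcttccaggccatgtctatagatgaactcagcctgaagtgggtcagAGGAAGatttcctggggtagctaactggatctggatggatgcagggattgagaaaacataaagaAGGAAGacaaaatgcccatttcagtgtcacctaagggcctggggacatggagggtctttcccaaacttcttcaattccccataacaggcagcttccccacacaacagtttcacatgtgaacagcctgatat
Folr2, chr7:101845282-101845581: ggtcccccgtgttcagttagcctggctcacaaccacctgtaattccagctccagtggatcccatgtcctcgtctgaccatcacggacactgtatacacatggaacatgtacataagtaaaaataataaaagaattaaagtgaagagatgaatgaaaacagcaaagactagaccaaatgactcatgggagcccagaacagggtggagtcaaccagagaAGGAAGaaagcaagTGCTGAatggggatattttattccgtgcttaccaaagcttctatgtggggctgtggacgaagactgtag
Folr2, chr7:101857141-101857440: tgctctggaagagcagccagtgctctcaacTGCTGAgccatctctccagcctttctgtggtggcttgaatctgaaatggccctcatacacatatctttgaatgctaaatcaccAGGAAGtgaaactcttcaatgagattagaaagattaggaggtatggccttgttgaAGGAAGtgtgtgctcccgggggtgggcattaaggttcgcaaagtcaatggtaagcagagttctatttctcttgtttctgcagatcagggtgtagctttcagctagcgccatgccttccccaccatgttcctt
The Fcna promoter held 5 matches to AGGAAG and 2 to TGCTGA. The Marco promoter held 2 matches to AGGAAG and 0 to TGCTGA, and the Folr2 promoters held 1 and 2 of the first and 1 each of the second. Among 32851 RefSeq promoters of the same length, 35.4% held AGGAAG at least once and 19.5% held TGCTGA. A match describes the letters and says nothing of binding.

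The 5 single-cell libraries came from leukocytes sorted for CD45 out of tumours that had been implanted in the pancreas 3 weeks earlier, with no further treatment. Each library stands for 1 genotype, and the labels give neither the number nor the age of the mice behind it. The labels name the genotypes CD4Cre, PDL1 floxed/WT-CD4Cre (here flWT_CD4Cre), PDL1 floxed/floxed-CD4Cre (flfl_CD4Cre), PDL1 floxed/floxed (flfl) and WT, and the libraries are called by these labels below. The file names of flWT_CD4Cre and WT are exchanged relative to their titles and genotype labels, and each file was read under the label it was deposited with, so every statement that sets either library against another depends on that choice. Cre driven by the Cd4 promoter is used to act in T cells. Whether it also acted on a floxed gene in these macrophages was not tested. PDL1 is encoded by Cd274, whose UMIs were found in 25.3% of CD4Cre T cells (23 of 91), 25% of flWT_CD4Cre T cells (18 of 72), 29.8% of flfl_CD4Cre T cells (17 of 57), 9.26% of flfl T cells (45 of 486) and 5.88% of WT T cells (18 of 306). With T cells thinned to 3000 UMIs, which left 83, 55, 51, 486 and 306 of them after shallower cells were left out, these shares were 15.7%, 7.27%, 5.88% (3 of 51), 4.32% and 2.29%. The labels do not say which exons are floxed, so transcripts read outside them leave the deletion unchecked. The labels call the cells tumour-infiltrating T cells, whereas T cells, with at least 2 Cd3 UMIs, made up 1.44% to 17.0% of each library.

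CD4Cre, flWT_CD4Cre and flfl_CD4Cre share a file header that names Cell Ranger 3.1.0, while flfl and WT lack it and list fewer genes. Xist was at 974, 542 and 673 CPM (UMIs scaled to a class total of 1000000) in the members of the first 3 libraries. It was at 6.56 and 0 CPM in those of flfl and WT, so Cre, file format and the Xist signal cannot be told apart. The Y-linked gene Ddx3y was present in all 5 libraries. Over all cells it stood at 12.9, 54.8, 43.5, 45.1 and 38.2 CPM in CD4Cre, flWT_CD4Cre, flfl_CD4Cre, flfl and WT. The first 3 libraries also shared 817 to 1127 cell barcodes between each pair. In 136 such pairs that involve a member, the other copy held a median of 2.63% of its UMIs. Of the members, 4 of 5 in CD4Cre, 3 of 50 in flWT_CD4Cre, 97 of 288 in flfl_CD4Cre and 0 in flfl and WT lay on a shared barcode, and no barcode was a member in more than 1 library. Members held a median of 27437 UMIs in CD4Cre, 20577 in flWT_CD4Cre, 24917.5 in flfl_CD4Cre, 11060 in flfl and 17215 in WT, against 11513 to 17406.5 in the other C1q macrophages. A rule on raw UMIs selects deeper cells more readily.

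Fcna and Folr2 were common to the members of all 5 libraries, whereas Marco and Lyve1 were not. Since the rule used Fcna, Marco and Lyve1, and Folr2, Hal and Vsig4 belong to the same set of markers, their levels are given as a description with no test. Fcna stood at 591 CPM in the CD4Cre members, 644 in flWT_CD4Cre, 587 in flfl_CD4Cre, 682 in flfl and 563 in WT. Folr2, which the rule did not use, stood at 649, 847, 422, 617 and 616 CPM in the same order, against 42.1, 55.7, 62.3, 21.0 and 16.1 CPM in the other C1q macrophages. All 5 member values of Folr2 lay above all 5 of the others. Marco ran from 0 CPM in CD4Cre and 165 in flWT_CD4Cre to 561 in flfl_CD4Cre, 551 in flfl and 743 in WT. Lyve1 stood at 1123, 323, 691, 157 and 53.1 CPM in the same order, lowest where Marco was highest.

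**Figure D1:**
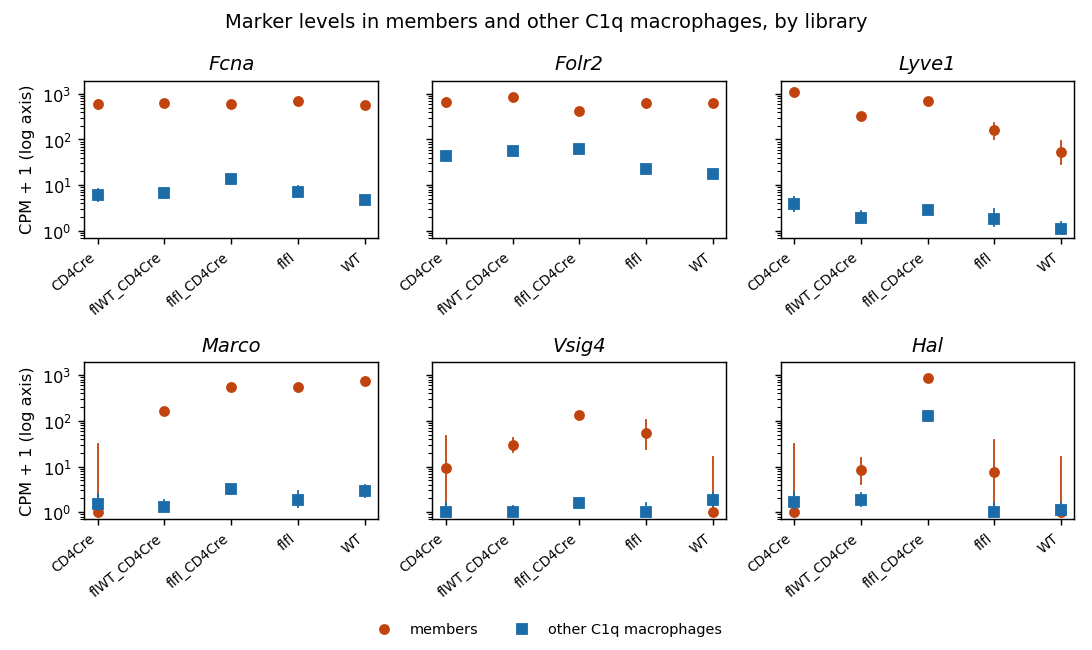
Levels of the 6 marker genes in members (circles) and other C1q macrophages (squares) of each library, as CPM + 1 of the summed UMIs on a log axis, with exact 95% Poisson intervals as lines. Fcna and Folr2 are high in the members of every library, while Hal stands out in flfl_CD4Cre in both kinds of cell.

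The 3 genes that chose the members met in 1 cell in a minority. Of the 371 members, 166 held Lyve1 and Fcna, 87 held Fcna alone, 75 held all 3 genes, 32 held Marco and Fcna, 6 held Lyve1 alone, 4 held Marco alone and 1 held Marco and Lyve1. Of the 75 with all 3 genes, 73 were in flfl_CD4Cre and 2 in WT. Marco UMIs were present in 0 of 5 members in CD4Cre, 2 of 50 in flWT_CD4Cre, 98 of 288 in flfl_CD4Cre, 3 of 13 in flfl and 9 of 15 in WT. In flWT_CD4Cre, 1 cell carried 178 of the 183 Marco UMIs. The name of a Marco and Lyve1 macrophage therefore covered few cells, and the members are called here by the 3 genes of the rule.

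Hal, which encodes histidine ammonia-lyase, the first enzyme of histidine breakdown, belonged to 1 library rather than to the members at large. It stood at 859.9 CPM in the flfl_CD4Cre members and at 0, 7.22, 6.56 and 0 CPM in those of CD4Cre, flWT_CD4Cre, flfl and WT. The other C1q macrophages of flfl_CD4Cre also carried it, at 127 CPM, against 0 to 0.854 CPM in the other 4 libraries. In flfl_CD4Cre, 278 of 288 members (96.5%) and 406 of 886 other C1q macrophages (45.8%) held a Hal UMI, against 3 of 57 T cells (5.26%, 95% interval 1.10 to 14.6). With every cell thinned to 3000 UMIs these shares were 79.1%, 21.9% and 1.96%. Vsig4 stood at 8.32, 28.9, 133, 52.5 and 0 CPM in the members of CD4Cre, flWT_CD4Cre, flfl_CD4Cre, flfl and WT, and a UMI of it was present in 33 of the 288 flfl_CD4Cre members. Hal and Vsig4 also fell short of the expression filter of the test that follows.

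At the threshold of 4 UMIs the members merged into the rest without a step. There were 24 members with exactly 4 UMIs and 38 other C1q macrophages with 3, and Folr2 stood at 348 and 374 CPM in them. Cbr2, a carbonyl reductase, stood at 160 and 394 CPM. Of all 3517 C1q macrophages, 2807 had 0 UMIs of the 3 genes, 339 had 1 to 3, 82 had 4 to 7 and 289 had 8 or more.

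Markers of other cell types were low in the members, with the exceptions named here. Summed T cell markers (10 genes) ran from 8.32 to 52.5 CPM over the 5 libraries, below the 70.0 to 116 CPM of the other C1q macrophages. Markers of dendritic cells (9 genes) ran from 0 to 39.4 CPM, of natural killer cells (7 genes) from 0 to 45.9, of B cells (8 genes) from 30.6 to 223, of plasma cells (6 genes) from 233 to 354, of tumour epithelium (9 genes) from 8.32 to 89.8 and of acinar cells (10 genes) from 0 to 112. The vessel genes Cldn5, Emcn, Plvap and Tie1 were at 0 in all members, as were the lymphatic genes Mmrn1 and Reln, although Lyve1 is itself a lymphatic marker. Markers of blood endothelium (7 genes) summed to at most 12.2 CPM, of lymphatic endothelium (5 genes) to 44.2, of mesothelium (5 genes) to 2.62, of mast cells and basophils (6 genes) to 6.56, of hepatocytes (5 genes) to 8.32 and of fibroblasts (8 genes) to 91.6. Neutrophil markers (7 genes) ran from 66.6 to 1522 CPM in members and from 149 to 1397 in the others. Globin and other erythroid genes reached 440.2 CPM in members and 741 CPM in the others.

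Markers of macrophages from other organs were also read in the members. Kupffer cell markers (7 genes), those of liver macrophages, summed to 166 to 400.3 CPM in members and to 22.7 to 32.9 in the other C1q macrophages, but the defining Kupffer gene Clec4f was at 0 in every library. Markers of peritoneal macrophages (8 genes) summed to 33.3 to 2670.5 CPM in members and to 13.8 to 27.5 in the others. Those of splenic marginal-zone macrophages (5 genes) ran from 26.2 to 149.8 and those of alveolar macrophages (7 genes) from 9.93 to 144 CPM in members, with Ear1, Car4 and Cidec at 0. The pan-leukocyte gene Ptprc stood at 491, 598, 598, 112 and 151 CPM in members and the macrophage gene Adgre1 at 175, 329, 160.2, 308 and 192, both without a difference past the test described next.

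The members were most frequent in the flfl_CD4Cre library. They made up 1.20% of the C1q macrophages in CD4Cre (exact 95% binomial interval 0.391 to 2.78), 8.68% in flWT_CD4Cre (6.51 to 11.3), 24.5% in flfl_CD4Cre (22.1 to 27.1), 2.52% in flfl (1.35 to 4.27) and 1.80% in WT (1.01 to 2.95). The interval of flfl_CD4Cre lay above the other 4 and that of flWT_CD4Cre above those of CD4Cre, flfl and WT, which overlapped. The member counts behind these shares were 5, 50, 288, 13 and 15. Of all cells, members made up 0.0985%, 1.32%, 7.29%, 0.454% and 0.523%. Intervals cover counting error only, and with 1 library per genotype no difference between genotypes can be tested.

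The order of the 2 highest libraries held at matched depth and without shared barcodes, while thinning exchanged flfl and WT. With every cell thinned to 3000 UMIs the shares were 0.353% in CD4Cre, 4.03% in flWT_CD4Cre, 17.9% in flfl_CD4Cre, 1.11% in flfl and 1.41% in WT. Without shared barcodes they were 0.270%, 8.83%, 18.8%, 2.52% and 1.81%, the first of these from 1 cell.

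**Figure D2:**
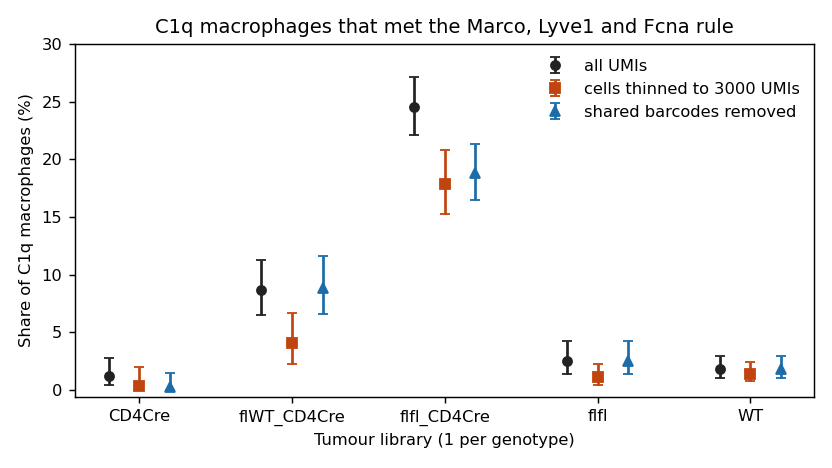
Share of C1q macrophages that were members in each library, from all UMIs, from cells thinned to 3000 UMIs and without shared barcodes; bars are exact 95% binomial intervals. The flfl_CD4Cre share of 24.5% stays highest at 17.9% after thinning and 18.8% without shared barcodes.

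Compared with the other C1q macrophages, the members carried more RNA of several scavenger, complement and resident macrophage genes, and of Saa3 and Lrg1, and less of matrix proteases, of the dendritic cell gene Itgax and of type I interferon genes. The question was what these cells share beyond the genes that chose them. UMIs were summed per library and class, and edgeR's quasi-likelihood test was run over 10615 genes with the library as a block. It called 496 genes higher (4.67% of those tested) and 667 lower (6.28%) at a Benjamini-Hochberg adjusted p of 0.05, of which 377 and 494 had the same sign in all 5 libraries. Without flfl_CD4Cre, which holds most of the members, the counts were 305 and 352. Fold changes below are log2 values fitted over 5 libraries, with a standard error (SE). The SE is the size of the change divided by the square root of edgeR's F statistic. That statistic uses a dispersion moderated over genes, so the SE is not the spread of the 5 library ratios. A single UMI equals 8.32 CPM in the CD4Cre members, so low values there rest on very few transcripts.

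Part of the 92 genes named in this comparison lost their call in restricted sets of cells. Among cells of 5000 to 20000 UMIs, which left 0, 21, 83, 12 and 11 members in CD4Cre, flWT_CD4Cre, flfl_CD4Cre, flfl and WT, 24 lost the call, with an adjusted p of 0.0555 to 0.66. They were Cxcl13, Saa3 (0.0626), Padi4, Lrg1, Cbr2, Ednrb, Calml4, Mmp12 (0.107), Pros1, Fth1, Blvrb, H2-DMa, Treml4, Ptgs2, Il1a, Usp18, Fcer1g, Sdc1, Retnlg, Krt18, Krt8, Pdpn, Icam2 and Siglec1. Without shared barcodes, which left 1, 47, 191, 13 and 15 members, 22 lost the call, with an adjusted p of 0.0577 to 0.99. They were Cxcl13, Fth1, Trf, Blvrb, Ninj1, H2-DMa, Lgals3, Ctsd, Lamp2, Grn, Ccl6 (0.727), Ccl8 (0.0946), Fcer1g, Fcgr1, Mrc1 (0.353), Hmgb2, Dusp1, Ier2, Egr1, Krt18, Krt8 and Siglec1. Of all these, Krt8 alone changed direction, and 8 were lost in both settings. Whether the smaller number of cells accounts for the losses was not tested.

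Among the genes raised most were Saa3 and Lrg1. Saa3 is an acute-phase protein of inflamed tissue. It stood at 11584, 6047, 5203, 30983 and 6357 CPM in the members of CD4Cre, flWT_CD4Cre, flfl_CD4Cre, flfl and WT, against 124, 179, 285, 485 and 70.4 CPM in the others. No member value overlapped the others, and the change was 5.56 (SE 0.46, edgeR adjusted p = 0.0014). Lrg1, a secreted glycoprotein of the acute phase, stood at 249.6, 377, 262, 774 and 776 CPM in the same order, against 10.9, 52.4, 34.2, 17.1 and 17.6 (log2 change 4.07, SE 0.59, edgeR adjusted p = 0.021). Its adjusted p was 0.052 or more without each of CD4Cre (0.091), flWT_CD4Cre, flfl_CD4Cre and WT (0.052 each).

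The scavenger genes Cd163 and Cd5l were each higher in the members of 5 of 5 libraries, with their highest values in different libraries. Cd163, the receptor for haemoglobin bound to haptoglobin, stood at 149.8, 65.0, 134, 59.1 and 44.9 CPM in members of CD4Cre, flWT_CD4Cre, flfl_CD4Cre, flfl and WT, against 0.101 to 5.48 CPM in the others (log2 change 5.51, SE 0.45, edgeR adjusted p = 3.9e-05). Cd5l, a secreted protein of tissue macrophages that binds lipids and pathogens, stood at 8.32, 159, 27.3, 262 and 89.8 CPM, against 0 to 2.28 (6.31, SE 0.39, edgeR adjusted p = 1.7e-07). In flfl, 38 of its 40 UMIs came from 1 cell, and in CD4Cre 94.4% of the Cd163 UMIs did. Of 14 tested scavenger and endocytic genes, 6 rose and 2 fell, with a median change of 0.66 against -0.07 over all genes tested. The other 4 that rose were Cd36, a receptor for fatty acids and oxidised lipoprotein (2.23, SE 0.22), Mrc1, the mannose receptor (0.78, SE 0.16), the endocytic receptor Stab1 (0.75, SE 0.16) and the sialic acid lectin Siglec1 (0.92, SE 0.21). Clec4n, the lectin dectin-2, fell by 1.91 (SE 0.22), and Cd209a fell by 2.66 (SE 0.57), although its adjusted p was 0.37 without flfl_CD4Cre.

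Complement genes other than C1q, which chose the cells, followed. C4b, a form of complement C4, stood at 1207, 1085, 765, 1168 and 437 CPM in members of CD4Cre, flWT_CD4Cre, flfl_CD4Cre, flfl and WT, against 57.4, 96.4, 123, 52.6 and 32.4 in the others (log2 change 3.63, SE 0.22, edgeR adjusted p = 1.4e-08). Of 14 complement genes tested, 4 rose, among them C4b, Cfp (properdin, which stabilises the alternative convertase; 0.96, SE 0.16) and C5ar1 (the C5a receptor; 0.72, SE 0.15), and Itgax fell. The list's median was 0.84.

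Genes for clearing dying cells moved in both directions. Of 12 tested, 3 rose and 3 fell, with a median of 0.01. Gas6, which bridges phosphatidylserine to TAM receptors, stood at 341, 311, 167, 223 and 151 CPM in members, against 55.7, 55.8, 57.4, 22.2 and 21.2 in the others (2.39, SE 0.19, edgeR adjusted p = 9.5e-10). Pros1, the related bridging protein S, rose by 1.60 (SE 0.26, higher in 4 of 5 libraries) and the engulfment factor Dock1 by 0.80 (SE 0.23). Axl, a receptor of Gas6, fell by 0.83 (SE 0.17), as did the bridging protein Mfge8 (-1.84, SE 0.24) and the integrin Itgb5. Of 17 iron and haem genes, Trf (transferrin; 0.67, SE 0.15) and Blvrb (biliverdin reductase B; 0.72, SE 0.19) rose and Fth1 (ferritin heavy chain) and the factor Nfe2l2 fell. The call on Blvrb was lost without flfl (adjusted p 0.11). Of 18 lysosomal genes, Ctsd (0.81, SE 0.16), Lamp2 (0.75, SE 0.14) and Grn rose and Psap and Ctsz fell.

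Among transcription factors of resident macrophages, 5 of 23 rose and 1 fell. Klf2 stood at 383, 716, 796, 1142 and 755 CPM in members, against 81.9, 168, 169, 151 and 59.3 in the others (2.52, SE 0.19, edgeR adjusted p = 1.5e-09). Klf4 rose by 1.48 (SE 0.18), Rxra by 1.01 (SE 0.22), Nr4a1 by 0.91 (SE 0.22) and Cebpa by 0.55 (SE 0.17). Id1 fell by 2.73 (SE 0.57), with an adjusted p of 0.30 without flfl_CD4Cre. Gata6, the factor of large peritoneal macrophages, stood at 0, 3.61, 4, 13.1 and 0 CPM in members (edgeR adjusted p = 0.075). Nr1h3, the liver X receptor alpha, had a change of -0.26 (SE 0.23, edgeR adjusted p = 0.64).

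Other genes known from resident macrophages gave 7 of 15 higher and 0 lower, with a median of 1.38. Ltc4s, leukotriene C4 synthase, stood at 624, 678, 949.6, 1188 and 1172 CPM in members of CD4Cre, flWT_CD4Cre, flfl_CD4Cre, flfl and WT, against 78.6, 64.8, 135, 69.4 and 49.6 in the others (3.46, SE 0.22, edgeR adjusted p = 2.8e-08). Ninj1, which acts in membrane rupture, rose by 1.43 (SE 0.16), Wwp1 by 1.38 (SE 0.23) and Fxyd2 by 2.18 (SE 0.36). Cbr2 stood at 291, 445, 302, 413 and 237 CPM, against 39.7, 41.6, 52.6, 6.89 and 5.23 (3.77, SE 0.66, edgeR adjusted p = 0.038), and Ednrb, an endothelin receptor, had a change of 3.64 (SE 0.63, edgeR adjusted p = 0.035). Leaving out any 1 library ended the call on Cbr2, with an adjusted p of 0.058 to 0.14, and leaving out CD4Cre, flWT_CD4Cre or flfl ended that on Ednrb (0.12, 0.16 and 0.09). The neonatal Fc receptor Fcgrt rose by 1.67 (SE 0.37), a call lost without CD4Cre (0.062), flfl_CD4Cre (0.064) or flfl (0.11).

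The remaining genes among the 12 largest rises were of diverse function. Padi4, an enzyme that citrullinates proteins, stood at 366, 156, 257, 256 and 163 CPM in members, against 1.01 to 12.4 in the others (5.19, SE 0.49, edgeR adjusted p = 0.0024). Mlxipl, the carbohydrate-response factor ChREBP, stood at 99.9, 24.4, 106, 26.2 and 49 CPM, against 1.11 to 8.22 (4.02, SE 0.28), and Calml4, a calmodulin-like gene, at 49.9, 76.7, 87.0, 144 and 40.8, against 2.21 to 10.7 (3.55, SE 0.33). The top pair, Cxcl13 (a chemokine that attracts B cells; 7.09, SE 1.36) and Alox15 (12/15-lipoxygenase; 6.77, SE 1.20), rested on few cells. A single cell held 81.8% of 99 Cxcl13 UMIs in flWT_CD4Cre, 95.7% of 162 in flfl and all 56 in WT, and 100% of 150 Alox15 UMIs in flWT_CD4Cre. Their edgeR adjusted p was 0.049 and 0.039. Leaving out any 1 library ended the call on Cxcl13 (0.079 to 0.18), and leaving out any 1 but flfl_CD4Cre ended that on Alox15 (0.099 to 0.19).

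Both belong to the list of peritoneal macrophage genes, of which 6 of 7 tested rose, with Prg4 (6.71, SE 0.43), Selp (2.48, SE 0.46), Icam2 (1.97, SE 0.29) and Naip1 (1.90, SE 0.51). Prg4, known as lubricin, stood at 0, 121, 5.65, 551 and 57.2 CPM in the members of CD4Cre, flWT_CD4Cre, flfl_CD4Cre, flfl and WT, and 97.8% of its 134 UMIs in flWT_CD4Cre came from 1 cell. Prg4 and Selp were higher in 4 of 5 libraries and Naip1 in 3 of 5, and 1 of 3 tested genes was called among cells of 5000 to 20000 UMIs. Of the 4 Kupffer genes tested, Cd5l and Cd163 rose, and the 2 not called had changes below 0. Slc40a1, 1 of these 2, stood at 0, 4.51, 2.62, 19.7 and 40.8 CPM in members of CD4Cre, flWT_CD4Cre, flfl_CD4Cre, flfl and WT. In the others it stood at 16.8, 25.2, 19.2, 15.1 and 20.4 CPM.

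**Figure D3:**
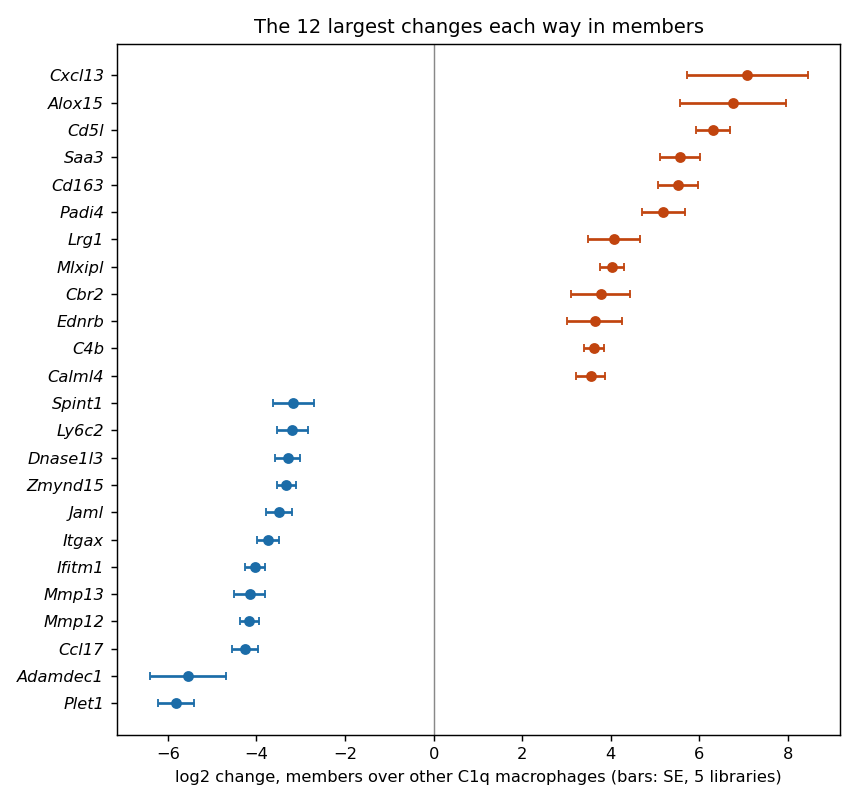
The 12 largest log2 changes each way between members and other C1q macrophages, among genes called by edgeR with the same sign in 5 libraries and at least 50 CPM in the higher class; bars are SE. Cxcl13 and Alox15 have the widest bars, 1.36 and 1.20, and Plet1 and Adamdec1 the lowest values, -5.81 and -5.55.

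The genes that fell most included matrix proteases, the integrin gene Itgax and the monocyte gene Ly6c2. Mmp12, the macrophage elastase, stood at 41.6, 116, 37.4, 32.8 and 102 CPM in members of CD4Cre, flWT_CD4Cre, flfl_CD4Cre, flfl and WT, against 1267, 1471, 933, 743 and 955 in the others (log2 change -4.16, SE 0.22, edgeR adjusted p = 1.6e-12). Mmp13, a collagenase, stood at 8.32, 36.1, 9.10, 0 and 16.3 CPM, against 254, 334, 273, 179 and 132 (-4.15, SE 0.34). Itgax, the integrin CD11c, stood at 0, 9.03, 10.5, 45.9 and 32.7 CPM, against 164, 181, 159.6, 234 and 240.2 (-3.75, SE 0.25). None of these member values overlapped the others.

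Ifitm1, an interferon-induced membrane protein (-4.03, SE 0.22), Ccl17, a ligand of CCR4 (-4.26, SE 0.30), Plet1 (-5.81, SE 0.41), the adhesion molecule Jaml (-3.49, SE 0.30), Zmynd15 (-3.32, SE 0.22), the nuclease Dnase1l3 (-3.30, SE 0.28) and the monocyte gene Ly6c2 (-3.19, SE 0.35) were lower in members of 5 of 5 libraries. Adamdec1, a secreted metalloprotease, had a change of -5.55 (SE 0.86), with an adjusted p of 0.062 without CD4Cre, 0.11 without flWT_CD4Cre and 0.056 without flfl_CD4Cre. Spint1, a protease inhibitor, had a change of -3.17 (SE 0.47), with an adjusted p of 0.10 without flfl_CD4Cre. Of the 5 dendritic cell markers tested, 5 fell (Itgae, Fscn1, Clec9a, Cd209a and Ccr7), and the calls on Fscn1 (0.15) and Clec9a (0.36) were lost without flfl_CD4Cre. Itgae was lower in 5 of 5 libraries, and Fscn1, Clec9a and Cd209a in 4 of 5. Their levels were low, with means of 6.12, 9.60, 4.29 and 8.21 CPM in the other C1q macrophages.

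Matrix and growth factor genes followed the proteases, with 8 of 22 lower and 3 higher. Mmp2 (-3.29, SE 0.30), Mmp14 (-2.15, SE 0.27), Tgfbi (-1.95, SE 0.17), Vegfa (-3.09, SE 0.44), Hbegf, Mmp8, Mmp13 and Tgfb1 fell. Timp2, an inhibitor of metalloproteases, stood at 899, 1049, 969, 1037 and 853 CPM in members, against 223, 321, 219.6, 255 and 424 in the others (1.68, SE 0.17, edgeR adjusted p = 1.3e-08), and the co-receptor Nrp1 (1.26, SE 0.19) and Ecm1 (1.38, SE 0.25) also rose. Of 15 monocyte genes, 3 fell (Napsa, Ly6c2 and Treml4) and 0 rose. Of 18 inflammatory genes, Nos2 (-2.86, SE 0.29), Ptgs2, Il1a (-1.87, SE 0.29), Nlrp3 and Il1b (-2.70, SE 0.54) fell and Saa3 rose. Nos2 was lower in 4 of 5 libraries. It was scarce in flfl and WT, at 0 and 4.08 CPM in members against 2.86 and 3.82 in the others. Of 18 genes of lipid-laden tumour macrophages, Mmp12 and Lgals3 fell and Apoc2 rose. Apoe did not pass the test (0.02, SE 0.17).

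Type I interferon genes were lower in the members: 12 of 20 fell and 0 rose, with a median of -0.93. Isg15, a ubiquitin-like protein, stood at 66.6, 168, 29.4, 59.1 and 8.17 CPM in the members of CD4Cre, flWT_CD4Cre, flfl_CD4Cre, flfl and WT, against 224, 394, 192, 135 and 73.7 in the others (-1.97, SE 0.24, edgeR adjusted p = 1.1e-05). Each member value was below that of the other cells of its library. Ifit2 fell by 2.02 (SE 0.32), Usp18 by 1.35 (SE 0.25), Ifi205 by 1.49 (SE 0.26) and Irf7 by 0.69 (SE 0.21). The count depended on the libraries and depth: 6 of 20 fell in a fit that left out 1 library, 3 of 20 among cells of 5000 to 20000 UMIs and 0 of 20 without the library block. Ifit2, Ifit3, Rsad2 and Usp18 had fewer than 3 member UMIs in both flfl and WT, as had Isg15 in WT. In flfl and WT, Rsad2 stood at 6.56 and 8.17 CPM in members and at 6.55 and 10.8 CPM in the others, the member values being 1 and 2 UMIs. Of 19 interferon gamma genes, Socs1 and Gbp4 fell and 0 rose.

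**Figure D4:**
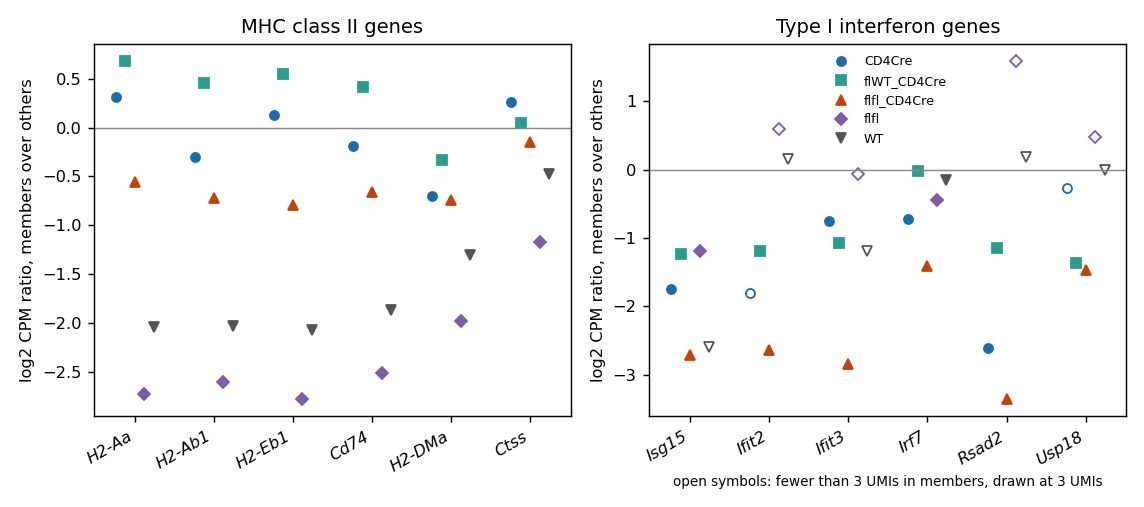
Ratio of the CPM of members to that of other C1q macrophages on a log2 scale, by library, for 6 MHC class II pathway genes (left) and 6 type I interferon genes (right); open symbols rest on fewer than 3 member UMIs. The class II ratios of flfl and WT lie below those of the 3 Cre libraries. Among ratios with at least 3 member UMIs, those of flfl_CD4Cre are the lowest for all 6 interferon genes. Open symbols are drawn as if at 3 UMIs. From the UMIs as counted, the ratios of Isg15 and Usp18 are lower in WT than in flfl_CD4Cre.

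MHC class II genes, which present antigen to CD4 T cells, differed between the sets of libraries. H2-Aa stood at 3861 and 5173 CPM in the members of CD4Cre and flWT_CD4Cre, against 3103 and 3219.9 in the others, and at 2899.8 against 4266 in flfl_CD4Cre. In flfl and WT it stood at 1614 and 2646 CPM in members, against 10674 and 10933. The member values of the 5 libraries thus spanned 1614 to 5173 CPM, while the other cells of flfl and WT carried more than those of the 3 Cre libraries. The change in members differed between the sets by -2.69 (SE 0.32, edgeR interaction adjusted p = 1.6e-05). H2-Ab1, H2-Eb1 and Cd74, the invariant chain, had differences of -2.29, -2.55 and -2.21. Over all libraries, 3 of 12 class II genes were called, all lower (H2-DMb2, H2-Oa and H2-DMa), with a median of -1.06; H2-DMa, which helps to load peptide, fell by 1.09 (SE 0.23). The call on H2-Oa was lost without flfl_CD4Cre (0.17), and 6 of 12 fell without flWT_CD4Cre.

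Chemokines moved in both directions, with 4 of 16 higher and 5 lower. Ccl8, a ligand of CCR8 and other receptors, stood at 2330.1, 3377, 709, 3156 and 3139.6 CPM in members of CD4Cre, flWT_CD4Cre, flfl_CD4Cre, flfl and WT, against 505, 597, 289, 1237 and 889 in the others (1.73, SE 0.18, edgeR adjusted p = 2.4e-07). Ccl6 rose by 1.45 (SE 0.16), as did Ccl9 and Cxcl13. Cxcl16 fell by 1.57 (SE 0.15), Ccl12 by 1.34 (SE 0.17), Ccl22 by 2.12 (SE 0.43), Ccl5 by 2.87 (SE 0.51) and the receptor Cx3cr1 by 1.23 (SE 0.24). Pf4 stood at 1498, 579, 214, 1273 and 3654 CPM in members, against 2583, 1349, 661, 411 and 633 in the others, lower in the 3 Cre libraries and higher in flfl and WT.

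The gene of PD-L1 itself, Cd274, was lower in the members than in the other macrophages. It stood at 83.2, 65.9, 73.6, 26.2 and 28.6 CPM in members of CD4Cre, flWT_CD4Cre, flfl_CD4Cre, flfl and WT, against 204, 188, 155, 44 and 32.1 in the others, lower in 5 of 5 libraries (-1.18, SE 0.19, edgeR adjusted p = 4.1e-05). In flfl members 1 UMI equals 6.56 CPM and in WT members 2 UMIs equal 8.17 CPM, so these Cd274 values rest on few UMIs. In WT the levels lay close, at 28.6 against 32.1 CPM. The other PD-1 ligand, Pdcd1lg2, fell by 2.79 (SE 0.33). Of 16 genes that restrain or tune T cells, 6 fell, with the interleukin-1 antagonist Il1rn, the receptor Havcr2 (-1.92, SE 0.27), the costimulator Cd86 (-0.91, SE 0.19) and Tgfb1 (-0.60, SE 0.15) beside both ligands. Cd300ld and Vsir (VISTA; 0.56, SE 0.16) rose.

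The lists that remain gave few calls. Of 7 Fc receptor genes, Fcgrt rose and Fcer1g and Fcgr1 fell, and both falls were lost without flfl_CD4Cre (0.15 and 0.13), that on Fcer1g also without flfl (0.06). Of 9 alternative activation genes, Mrc1 rose and Pdcd1lg2, Tmem26 and Mgl2 fell. Arg1 had a change of 0.55 (SE 0.70). Of 20 cell cycle genes, Hmgb2 fell and 0 rose, and its adjusted p was 0.073 without flWT_CD4Cre, 0.11 without flfl and 0.06 without WT. Of 14 genes that respond to stress and tissue dissociation, Dusp1 (0.96, SE 0.17), Ier2, Egr1, Fos (0.71, SE 0.16) and Zfp36 rose and Hspa1b, Atf3 and Hsp90aa1 fell. Among markers of other cells, 3 of 6 neutrophil genes (Mmp8, G0s2 and Retnlg), 3 of 4 epithelial genes (Krt18, Cdh1 and Krt8), Il7r, Sdc1, Pecam1 and Pdpn fell, and 0 of 5 B cell, 3 natural killer, 4 acinar, 2 fibroblast and 3 alveolar macrophage genes were called. The fall of Krt8 was lost without flWT_CD4Cre (0.052) and turned to a change of 0.64 among cells of 5000 to 20000 UMIs (adjusted p 0.55), and that of Sdc1 was lost without flfl_CD4Cre (0.12) and at that depth (0.337). Of 4 splenic marginal-zone genes, Siglec1 rose and Cd209a fell.

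The members were split by whether Marco UMIs outnumbered those of Lyve1 and Fcna, so that the split rests on the genes of the rule. There were 56 Marco-led members (0, 2, 46, 3 and 5 in CD4Cre, flWT_CD4Cre, flfl_CD4Cre, flfl and WT), against 312 led by Lyve1 or Fcna (5, 48, 239, 10 and 10), with 3 ties. Since flfl_CD4Cre alone had at least 10 of each, no test across libraries was made, and its values are summed UMIs of 1 library with exact 95% Poisson intervals. A gene was counted as past the fold if it had at least 50 CPM in the higher class, a log2 difference of at least 1 and intervals that did not overlap. Of 3407 genes, 32 were past the fold in favour of the Marco-led members (0.939%) and 19 in favour of the Lyve1-or-Fcna-led (0.558%).

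The Marco-led members of flfl_CD4Cre had more RNA of Timd4, Vsig4, Slpi and Lbp, while 1 of 9 genes for clearing dying cells and 0 of 11 scavenger genes were past the fold in their favour. Timd4 stood at 198 CPM (95% interval 173 to 226) against 45 (39.8 to 50.7), and Vsig4 at 347 (313 to 383) against 94.7 (87.1 to 103). Slpi, an inhibitor of leukocyte proteases, stood at 229 CPM against 48.9, and Lbp, which binds bacterial lipopolysaccharide, at 237 against 60.8. The Marco-led members also had more Cxcl10, a CXCR3 ligand, at 375 CPM against 115, and Cd24a at 57.5 against 12.6. Inhba (53.1 against 5.15 CPM), Col4a1 (54.9 against 5.15) and Ube2c (58.4 against 14.5) completed the 8 largest, and 63.4% of the 93 Col4a1 UMIs in flfl_CD4Cre members came from 1 cell.

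The Lyve1-or-Fcna-led members of flfl_CD4Cre had more of the alternative activation genes Retnla, at 282 CPM (269 to 296) against 1.77 (0.214 to 6.39), and Mgl2, at 51.2 (45.6 to 57.2) against 1.77. For Retnla, 67.4% of 1701 UMIs in the members came from 1 cell. Ccl8 stood at 829 CPM (806 to 852) against 133 (112 to 156), and Rcn3, a calcium-binding protein of the secretory pathway, at 172 against 29.2. Globin genes filled the other places, with 99.9% of 1774 Hbb-bs UMIs in 1 cell. Of the listed genes, 2 of 5 alternative activation genes were lower in the Marco-led members and 0 of 9 class II genes differed past the fold.

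The 3 other libraries that held both kinds had 2 to 5 Marco-led cells each, and their values are given with no test. Folr2 was not past the fold in flfl_CD4Cre. It stood lower in the Marco-led members of flWT_CD4Cre (98.4 against 883 CPM), flfl_CD4Cre (291 against 452), flfl (44.1 against 859) and WT (189.8 against 733). Ccl8 was lower in the Marco-led members of the same 4, at 1515 against 3466 CPM, 133 against 829, 22.1 against 4482 and 152 against 3958. Cxcl13 was higher in them in each of the 4, at 1594 against 17.0, 174 against 79.8, 3465 against 46.7 and 1063 against 0. The high values of Cxcl13 in flWT_CD4Cre, flfl and WT came mostly from 1 cell each, as given above.

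**Figure D5:**
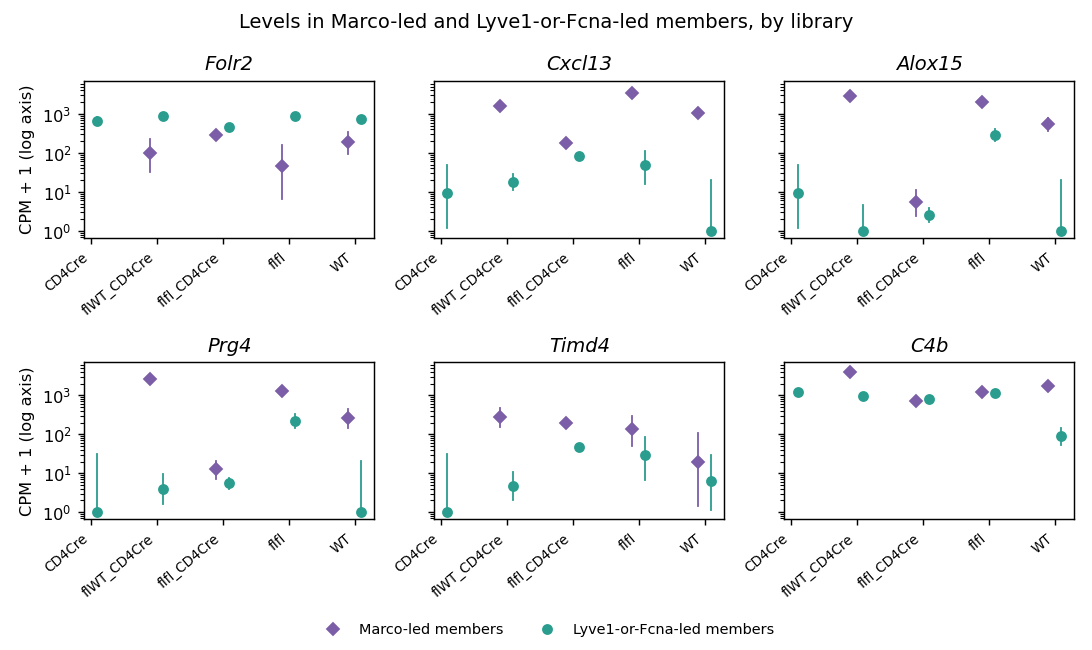
Levels of 6 genes in Marco-led and Lyve1-or-Fcna-led members of each library, as CPM + 1 on a log axis with exact 95% Poisson intervals; CD4Cre had no Marco-led member. Folr2 is lower in the Marco-led members of the 4 libraries that hold both, from 44.1 to 291 CPM against 452 to 883.

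Between genotypes, the members of flfl_CD4Cre had less Ccl3, Ccl4, Hmox1 and Pf4 and more Ccl5 and Olr1 than those of CD4Cre and of the other 3 libraries. The comparison asks how macrophages differ where Cd274 is floxed, both libraries carrying Cre, but it sets 288 cells of 1 library against 5 of another and cannot be tested. By the rule of size above, 127 of 3729 genes were past the fold in the higher direction (3.41%) and 202 in the lower (5.42%). With CPM scaled by TMM factors the split turned to 185 higher and 121 lower. Of the 127 and 202 genes, 79 and 47 also lay outside the range of the other 4 libraries. Genes were named from the latter.

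Ccl4, an inflammatory chemokine, stood at 27.6 CPM in the flfl_CD4Cre members and at 549, 294, 276 and 216 CPM in CD4Cre, flWT_CD4Cre, flfl and WT. Ccl3, its relative, stood at 13.8 CPM against 166, 169, 256 and 131. Hmox1, haem oxygenase 1, stood at 262 CPM against 2779, 938, 1063 and 1168, and Pf4 at 214 against 1498, 579, 1273 and 3654. The flfl_CD4Cre value was the lowest of the 5 in each case, but in CD4Cre 1 of 5 cells held all 66 Ccl4 UMIs, 14 of 20 Ccl3 UMIs and 88.6% of the 334 Hmox1 UMIs. The fatty acid carrier Fabp5 stood at 168 CPM against 3046, 724, 171 and 376, where 95.6% of the 366 CD4Cre UMIs came from 1 cell. Ms4a7 (61.2 against 291 CPM in CD4Cre), Cx3cr1 (69.1 against 291) and Dppa3 (1.10 against 83.2) completed the 8 largest. A single CD4Cre cell held 34 of 35 Cx3cr1 UMIs and all 10 Dppa3 UMIs.

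In the other direction, Ccl5 stood at 169 CPM in flfl_CD4Cre and at 33.3, 18.1, 45.9 and 49 CPM in the members of CD4Cre, flWT_CD4Cre, flfl and WT. Olr1, the receptor LOX-1 for oxidised lipoprotein, stood at 99.7 CPM against 8.32, 0.903, 32.8 and 16.3. Tppp3 (190.0 against 16.6 CPM in CD4Cre), Gatm, which makes the precursor of creatine (159 against 25), the factors Zbtb20 (134 against 25) and Skil (129 against 25) and the GTPase Rhoq (134 against 33.3) were also higher, and Hbb-bs came from 1 cell. Without shared barcodes, which left 191 cells against 1, 32 genes were higher and 184 lower. Cell cycle genes gave 5 of 11 lower than in CD4Cre, with Mki67 at 72.4 CPM against 458. The Mki67 UMIs of CD4Cre came from 2 of its 5 members. Against flWT_CD4Cre, 4 of 7 cell cycle genes were higher and 0 lower, with Mki67 at 25.3 CPM in flWT_CD4Cre.

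With flWT_CD4Cre in place of CD4Cre, which gives 50 cells against 288, 152 of 3477 genes were higher in flfl_CD4Cre (4.37%) and 126 lower (3.62%). These comparisons share the flfl_CD4Cre members. There were 35 genes higher and 34 lower in both. Type I interferon genes gave 13 of 15 lower in flfl_CD4Cre, with Isg15 at 29.4 CPM against 168 and Rsad2 at 12.8 against 138. Interferon gamma genes gave 9 of 18 higher, with Gbp2 at 482 CPM (466 to 498) against 120.0 (101 to 142) and Iigp1 at 533 against 137. Against CD4Cre, 1 of 7 type I genes was lower and 1 of 18 interferon gamma genes higher.

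The stress genes gave 8 of 11 lower, with Fos at 188 CPM against 924 and Egr1 at 36.3 against 314. Of 14 other genes of resident macrophages, 8 were lower, with Ednrb at 155 CPM against 344. In the other C1q macrophages of the same 2 libraries, 12 of 3309 genes were higher past the fold and 40 lower. These included 5 of the 152 genes higher in the members and 25 of the 126 lower. By list, the other C1q macrophages had 5 of 16 type I interferon genes lower (median log2 difference -0.71) and 4 of 13 stress genes lower (-0.62). They had 2 of 19 interferon gamma genes higher (0.44), and of 11 other genes of resident macrophages 1 was higher and 1 lower.

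The flfl and WT libraries, both without Cre in their labels, gave 69 of 2795 genes higher in flfl members (2.47%) and 73 lower (2.61%), from 13 and 15 cells. Spp1, osteopontin, stood at 78.7 CPM (40.7 to 138) in flfl and 1580.0 (1426 to 1746) in WT, and at 1040.2, 781 and 244 CPM in CD4Cre, flWT_CD4Cre and flfl_CD4Cre. Adam8 (6.56 CPM in flfl against 171 in WT), Wfdc21 (6.56 against 122) and Egln3 (13.1 against 122) were lower as well. Retnla stood at 1411 CPM in flfl and 0 in WT, with 49.3% of its UMIs in 1 cell, and Il1r2, the decoy interleukin-1 receptor, at 98.4 CPM against 8.17. Prg4 stood at 551 CPM against 57.2, while Cd209f (20 UMIs, all in 1 cell) and Serpinb2 (17 UMIs) rested on few transcripts. Stress genes were among those higher in flfl, with Fos at 1417 CPM against 489.9 and Egr1 at 1004 against 155, and their part in the other differences was not tested.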

How the data were processed

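The authors deposited filtered matrices of whole-number UMI counts for 5 tumour libraries; Cell Ranger 3.1.0 is named per the file headers of 3, and mm10 per the submitters' processing notes. The file names of flWT_CD4Cre and WT are exchanged relative to the labels, and the labels were used. The 12 bulk libraries were not used. Cells were filtered as described above over 28208 common genes, with no doublets removed in the main analysis. UMIs were summed per library and class and tested with edgeR 4.0.16 (robust quasi-likelihood, TMM factors, filterByExpr, library block, genes of the rule left out). On simulated sums, edgeR recovered 37 of 100 genes changed 2-fold and 98 of 100 changed 4-fold, with 8 false calls among 143. Every simulated sum had the same spread between libraries, whether it stood for 5 or 288 member cells. These rates therefore need not hold for the real sums. On simulated counts, the rule of size passed 66 unchanged genes for flfl_CD4Cre against CD4Cre and 21 for flfl against WT. The latter simulation held counting error only, with no spread between cells. DESeq2 1.42.0 on the same sums was an alternative. CPM are UMIs scaled to a class total of 1000000, and intervals are exact.

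The members and the 39 gene lists were chosen with earlier results of these data known. Named genes are the 12 largest changes each way with the same sign in 5 libraries and at least 50 CPM, up to 3 per list, and in comparisons of single libraries the 8 (flfl against WT, 5) largest past the fold. Any other gene named was chosen after its values were seen. Some genes that the rule or lists hold are not reported here. Libraries within a genotype were not replicated, so edgeR's p-values measure the spread of the member-to-other difference over 5 libraries of different genotype.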

Additional observations from a re-analysis of the deposited data

Results flagged for a closer look

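The change in members over other C1q macrophages differed between flfl and WT on one side and the 3 Cre libraries on the other for 83 of 10615 genes (edgeR interaction, adjusted p under 0.05), 49 with a higher and 34 with a lower log2 change in flfl and WT; 877 passed an unadjusted p of 0.05. Of the genes reported here 35 did so, and the values below are differences of log2 changes. Cre, file format and the Xist signal cannot be told apart for any of them.

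Class II genes were relatively lower in the members of flfl and WT, with H2-Aa at -2.69, H2-Ab1 at -2.29, H2-Eb1 at -2.55, Cd74 at -2.21, H2-DMb1 at -1.80, H2-DMa at -1.21 and the protease Ctss at -1.03. The interferon-inducible GTPases Iigp1 (-2.63) and Gbp3 (-1.87), the receptors Fcgr4 (-1.68), Fcgrt (-1.44) and Cd72 (-1.94), ceruloplasmin Cp (-2.16) and the immunoglobulin gene Ighg2b (-4.47) went the same way. Some of these rest on few UMIs. Iigp1 stood at 6.56 and 8.17 CPM in the members of flfl and WT, or 1 and 2 UMIs, and Gbp3 at 13.1 and 40.8 CPM. Ighg2b stood at 0, 0, 4.96, 13.1 and 16.3 CPM in members of CD4Cre, flWT_CD4Cre, flfl_CD4Cre, flfl and WT. In the others it stood at 1.85, 0.0949, 0.191, 23.8 and 31.7 CPM.

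The other genes had relatively higher changes in the members of flfl and WT. These were Cbr2 (2.58), Ednrb (2.31), Lrg1 (2.06), Padi4 (1.98), Ltc4s (1.10), Pf4 (3.15), F13a1 (3.11), the iron exporter Slc40a1 (3.39), Cd93 (1.79), Itgam (1.51), Cebpb (1.00), Clec4n (1.13), Ecm1 (1.23) and Adamdec1 (4.49). Chil3 (5.62), Hp (3.45), F10 (2.68), Fn1 (1.88), Il1b (2.01), Ccl2 (1.38) and the heat shock gene Hspa1a (2.39) also did. Chil3 stood at 118 and 131 CPM in the members of flfl and WT and at 43.5 and 17.9 in the others, whereas in CD4Cre, flWT_CD4Cre and flfl_CD4Cre it stood at 0, 0.903 and 11.3 CPM in members and at 136, 45.4 and 109 in the others.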

How the results depend on the processing

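Of the 92 genes named against the other C1q macrophages, 91 kept their direction in every alternative that gave a value and 28 kept their call in all; Krt8 turned to 0.64 among cells of 5000 to 20000 UMIs. No paired analysis was possible because no genotype has a second library; within libraries, classes were paired by the library block, and without it 149 genes were higher and 167 lower, against 496 and 667. Among cells of 5000 to 20000 UMIs, where CD4Cre has no member, 309 were higher and 317 lower, and with DESeq2 455 and 438. Leaving out 1 library gave 305 to 535 higher and 352 to 719 lower, the lowest without flfl_CD4Cre. DESeq2 moved the median change of all genes from -0.07 to 0.18. Shares of C1q macrophages moved in CD4Cre to 0.353% on thinning and 0.270% without shared barcodes; in flWT_CD4Cre to 4.03% on thinning and 5.03% with at least 8 UMIs; in flfl_CD4Cre to 17.9%, 18.8%, 20.5% (at least 8 UMIs) and 19.9% (a minimum scaled to depth); and in flfl to 1.11% on thinning and 1.16% with at least 8 UMIs. Against CD4Cre, flfl_CD4Cre had 127 genes higher, or 73 at 100 CPM, 57 with the scaled minimum and 32 without shared barcodes, and 202 lower, or 121 with TMM scaling, 97 at 100 CPM and 126 against flWT_CD4Cre. Removal of shared barcodes was chosen after seeing the data. For shares, thinning and minimum change the cells counted; the other causes were not tested. The Marco-led split gave 32 genes higher and 19 lower, or 17 and 12 at 100 CPM and 74 and 55 at 20 CPM, settings chosen after seeing the data; DESeq2, size factors, no filter, no library block and leaving out a library were not run for it, since no test across libraries was made. Depth limits the CD4Cre members most, with 120169 UMIs in all.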
